A study of Mus musculus with 12 samples.

Results

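Mitochondrial ribosomal protein genes are the nuclear genes for the proteins of the ribosome inside mitochondria. They were chosen by name, as the protein-coding genes whose symbol starts with Mrpl or Mrps followed by a digit, and 78 of the 54532 genes in the deposited table met that rule. The tissue was the limb bud of mouse embryos at E12.5, and the study asked how loss of METTL14, a subunit of the enzyme that writes N6-methyladenosine into RNA, affects RNA levels and loading on polysomes. Controls, called cHet, carried 1 floxed and 1 wild-type allele of Mettl14 (Mettl14 wt/flox), and knockouts, called cKO, carried the floxed allele on both chromosomes (Mettl14 flox/flox). The sources used here name neither the Cre driver nor the deleted exons. From each lysate, RNA of the whole cytoplasm (input) and RNA recovered from the polysome part of a sucrose gradient were sequenced, which gave 4 groups of 3 libraries. The groups are called here by genotype and fraction, such as cKO input, and the labels call the 3 libraries of a group biological replicates without saying whether embryos were pooled, so p-values measure the spread between these samples.

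Mitochondria keep a small genome that encodes a few proteins of the respiratory chain, and the mitochondrial ribosome makes those proteins. Its RNA comes from the mitochondrial genome, whereas all of its proteins are encoded in the nucleus, translated by cytosolic ribosomes and imported. Some of these proteins descend from those of bacterial ribosomes and others exist only in mitochondria. The mRNAs described here are therefore clients of the cytosolic polysomes that were purified, not parts of them.

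By these lineages the members comprised 30 bacterial-type and 21 mitochondria-specific proteins of the large subunit, and 16 bacterial-type and 11 mitochondria-specific proteins of the small subunit. Mrps18a and Mrps30 were counted with the large subunit, where their products sit. Mrps36 was kept because its name met the rule, although its product is now known as a part of the alpha-ketoglutarate dehydrogenase complex. The genes lay on 17 chromosomes, with 11 on chromosome 11 and 8 on chromosome 17. Processed pseudogenes were not members, and of the 5 in the table Mrpl48-ps reached a mean of 4.49 FPKM and Mrpl23-ps1 one of 4.43 FPKM. FPKM are fragment counts divided by gene model length and library size. Because Mrpl48 itself had a mean of only 4.36 FPKM, its value is uncertain where reads could be shared with that copy. In the gene models, 41 members overlapped another gene and 25 overlapped a protein-coding one. The sources used here do not state whether counting used strand, so values of overlapping genes are uncertain.

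The 12 libraries held between 10349912 and 30068823 reads assigned to genes. Mettl14 stood at 4.03 to 4.09 FPKM in cHet input and at 2.60, 3.32 and 1.26 FPKM in cKO input. On polysomes it stood at 2.83 to 3.07 FPKM in cHet and at 2.73 to 3.29 FPKM in cKO, so there its level did not set the genotypes apart. All 10 limb mesenchyme markers were detected in all libraries, and so were all listed markers of erythroid cells, epidermis, macrophages, endothelium, muscle and neural crest. The summed erythroid markers spanned 9311 to 23934 FPKM in cHet input, 5791 to 14310 FPKM in cKO input, 16422 to 31481 FPKM in cHet polysomes and 10738 to 25940 FPKM in cKO polysomes. Macrophage markers spanned 42.1 to 47.1 FPKM in cHet input against 53.3 to 75.6 FPKM in cKO input, epidermis markers 304 to 313 FPKM against 365 to 394 FPKM, and limb mesenchyme markers 620 to 715 FPKM against 788 to 1010 FPKM. On polysomes the genotypes did not overlap for macrophage markers (51.6 to 57.2 against 68.3 to 94.3 FPKM), epidermis markers (164 to 174 against 216 to 417 FPKM) and neural crest markers, for which the cKO libraries stood at 10.7 to 15.5 FPKM, above all cHet libraries. The part of these markers in the results below was not tested. A pair of libraries stood apart in a principal component analysis. The cKO input replicate 3 lay at -63.0 on the second component, where the other libraries lay between -23.0 and 22.5. The cKO polysome replicate 1 lay at 3.97 on the first component, and the rest of the polysome libraries lay between 35.5 and 53.8. Results that rest on these libraries are given with and without them.

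Reads were counted for 77 of the 78 members, and their median lay above that of expressed protein-coding genes. Averaged over the 12 libraries, 19 members stood at 50 FPKM or more, 41 between 10 and 50 FPKM, and 17 above 0 but under 10 FPKM. The median of the member means was 25.3 FPKM, against 8.21 FPKM over protein-coding genes with a mean of at least 1 FPKM. The highest was Mrpl34, for a small bacterial-type protein of the large subunit, with a mean of 234 FPKM. Mrpl43, a mitochondria-specific large-subunit gene, followed with 130 FPKM, and then came Mrps21 with 108 FPKM, Mrpl14 with 104 FPKM and Mrpl54 with 102 FPKM.

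At the low end stood Mrps10 with 3.75 FPKM, Mrps31 with 4.05 FPKM, Mrpl1 with 4.31 FPKM and Mrpl48 with 4.36 FPKM. The 10 highest members had a median coding length of 426 bases, and the 10 lowest above 0 had 861 bases. The median gene model length, by which FPKM are divided, was 1013 bases for the highest 10 and 5543 bases for the lowest 10. Mrpl53 was listed at 0 in all 12 libraries. Its gene model (mm10, chr6:83109040-83109939, plus strand) lies wholly inside that of Gm42688 on the same strand, and reads in a region shared by gene models can be left uncounted, so its level is not known from these data.

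**Figure D1:**
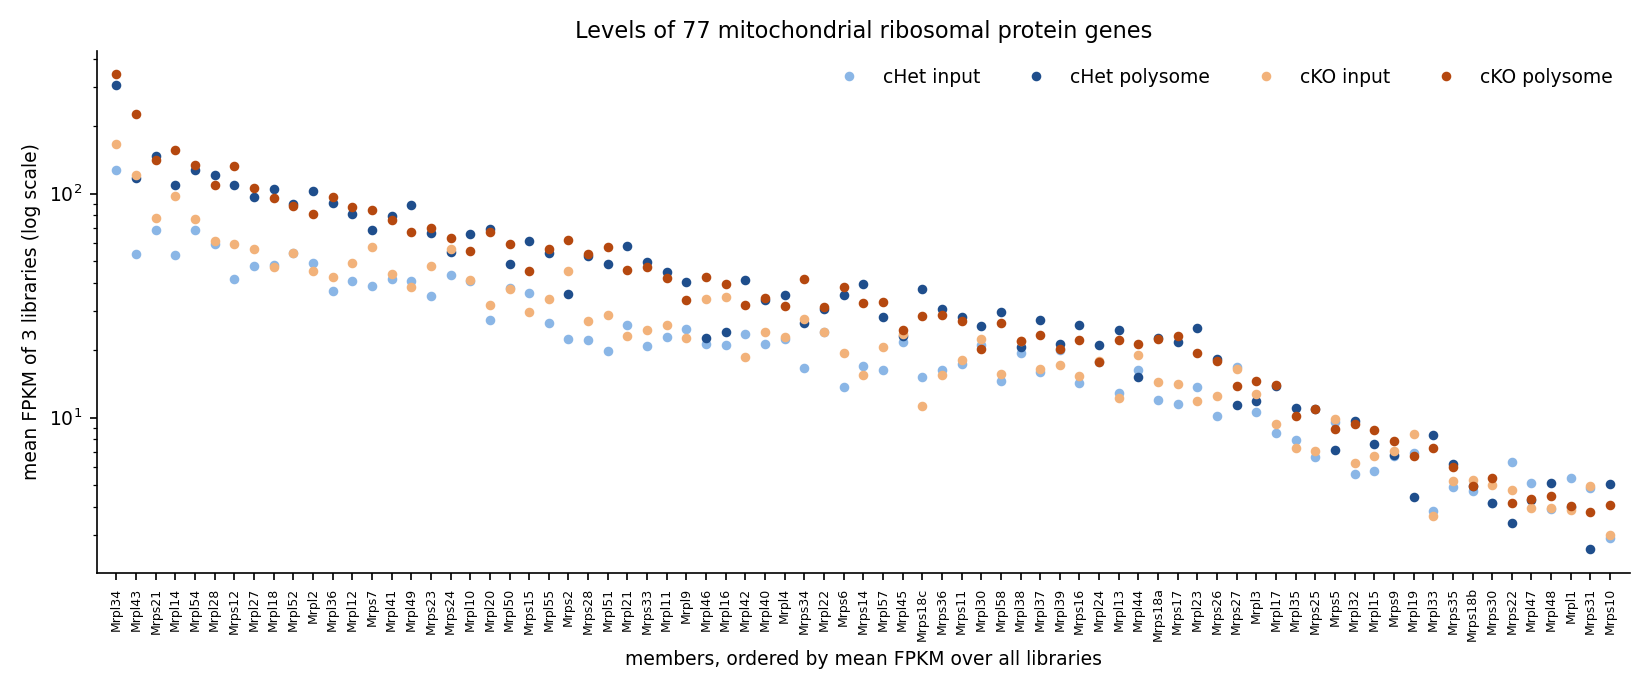
Mean FPKM of 3 libraries (log scale) for the 77 members with reads, ordered by their mean over all 12 libraries, with 1 point for each of the 4 groups. The dark polysome points lie above the pale input points for most members. They cross below them for several at the low end, such as Mrps22 and Mrps31 in both genotypes and Mrpl1 in cHet.

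Short motifs of some general activators were searched in the promoters of the members, of other genes and of cytosolic ribosomal protein genes. RefSeq promoter windows of 300 bases (250 before the start, GRCm38.p6) were matched by symbol for 69 members and 65 cytosolic ribosomal protein genes. The motif of NRF1, an activator of nuclear genes for mitochondrial proteins, was searched on both strands as GCGCANGCG and was held by 23.2% of members, 7.03% of all 27025 genes in the promoter table, 15.9% of expressed protein-coding genes and 13.8% of cytosolic ribosomal protein genes. The ETS motif CCGGAAG, bound by GABPA and its relatives, was held by 37.7%, 9.93%, 20.8% and 38.5% in the same order, so members and cytosolic ribosomal protein genes had like shares. The YY1 motif ATGGCGG was held by 18.8%, 4.69%, 9.93% and 16.9%. The SP1 motif GGGCGG showed the other order against expressed genes, with 49.3% of members, 38.2% of all genes, 71.7% of expressed protein-coding genes and 61.5% of cytosolic ribosomal protein genes. A C followed by at least 4 pyrimidines within 5 bases of the start, like that of terminal oligopyrimidine mRNAs, was held by 24.6% of members, 23.8% of expressed protein-coding genes and 46.2% of cytosolic ribosomal protein genes. Motifs were searched separately, so matches of different motifs may overlap, and a match describes letters, not binding.

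The 100 bases before the RefSeq start are printed for 6 members on which the results below turn. Mrps2, Mrpl43, Mrpl16 and Mrpl14 are 4 of the 11 members whose cKO libraries all lay above the cHet libraries in both fractions, none of which passed the test between genotypes. Mrps12 had the largest polysome excess in cHet, and Mrps22 the largest deficit. All are from GRCm38.p6, read 5′ to 3′ on the strand of the gene. Capitals mark matches to the NRF1, ETS, YY1 or SP1 motif on either strand.
Mrps2 (chr2:28467966-28468065, plus strand): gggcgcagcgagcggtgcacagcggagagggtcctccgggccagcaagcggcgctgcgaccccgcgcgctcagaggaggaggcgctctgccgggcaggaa
Mrpl43 (chr19:45006443-45006542, minus strand): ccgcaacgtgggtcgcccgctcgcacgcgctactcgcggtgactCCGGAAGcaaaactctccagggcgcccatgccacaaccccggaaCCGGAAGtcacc
Mrpl16 (chr19:11770315-11770414, plus strand): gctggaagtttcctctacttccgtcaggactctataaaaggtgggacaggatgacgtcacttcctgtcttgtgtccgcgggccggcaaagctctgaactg
Mrpl14 (chr17:45686249-45686348, plus strand): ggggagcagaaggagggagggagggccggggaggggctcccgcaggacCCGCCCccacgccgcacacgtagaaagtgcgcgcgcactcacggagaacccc
Mrps12 (chr7:28741822-28741921, minus strand): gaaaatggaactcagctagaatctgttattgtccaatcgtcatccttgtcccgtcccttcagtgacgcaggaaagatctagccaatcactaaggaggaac
Mrps22 (chr9:98601680-98601779, minus strand): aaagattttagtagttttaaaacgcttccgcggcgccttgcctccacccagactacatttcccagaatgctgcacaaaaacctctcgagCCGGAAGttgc

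Mrpl43 held the ETS motif at 2 places, starting 56 and 12 bases before its start, and Mrps22 held it once, 11 bases before. Among these stretches, Mrps2, Mrpl43, Mrpl16 and Mrpl14 did not share a motif: Mrps2 and Mrpl16 held none of the 4 motifs there, and Mrpl14 held only the SP1 motif, on the opposite strand. Members with the ETS motif had a median log2 difference between polysome and input in cHet of 0.93, and those without it 0.70. For the NRF1 motif the medians were 0.69 with and 0.87 without it.

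In control limb buds, mRNAs of mitochondrial ribosomal proteins were more abundant among polysome RNA than in the cytoplasm as a whole. Summed over the members, the 3 cHet input libraries held 1854, 1893 and 1876 FPKM and the 3 cHet polysome libraries 3498, 3455 and 3450 FPKM. As a share of assigned reads, that was 0.382% ± 0.0086 in input and 0.652% ± 0.0134 on polysomes (SD, n = 3). The groups did not overlap. Differences are given on the log2(FPKM + 0.1) scale, and since the authors' values were scaled to the median gene, a polysome excess is relative to that gene. In bulk RNA, fewer cells that express a gene and less RNA of it per cell cannot be told apart.

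Of the 77 members tested, 53 were higher on polysomes in cHet and 4 were lower at an adjusted p under 0.05 (limma, Benjamini-Hochberg over all 13610 genes). Over all genes tested, 27.3% were higher and 25.9% lower. The median difference was 0.77 for members and 0.02 for all genes. Lysates are matched here by replicate number, which the labels do not state to mark a lysate. The medians of polysome minus input were 0.79, 0.74 and 0.83 in the 3 cHet lysates. Every cHet polysome library lay above every cHet input library for 60 members, and for 5186 of all 13610 genes. Scaling to protein-coding genes, in place of the deposited scaling, moved the median of all genes to -0.21 and the calls over all genes from 3717 higher and 3525 lower to 2471 higher and 4578 lower. The members then gave 49 higher and 5 lower, with a median of 0.55.

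In knockout limb buds the members were again richer on polysomes. The cKO input libraries held summed member levels of 2083, 1956 and 2638 FPKM and the cKO polysome libraries 3200, 3519 and 4300 FPKM, so the groups did not overlap but spread more widely than in cHet. By the same fit, 51 of 77 members were higher and 0 were lower (voom on reads recovered from the FPKM called 54 higher and 0 lower). At an unadjusted p under 0.05, 57 members and 5988 of all 13610 genes passed in either direction. Over all genes 16.9% were higher and 15.6% lower. The median was 0.59 for members and 0.06 for all genes, and the lysates gave 0.52, 0.65 and 0.58. With protein-coding scaling the counts over all genes moved from 2306 higher and 2118 lower to 1686 and 2704, and those of the members to 44 and 1.

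The number of members higher in cKO was 29 without cKO polysome replicate 3, when the number over all genes moved from 2306 to 1189, and 33 without cKO input replicate 2, when it moved to 1609. A fit of the 6 cKO libraries alone, whose spread estimate leaves out the cHet libraries, called 14 members and 460 genes higher. Without cKO polysome replicate 1, the number of members higher stayed at 51 and the number lower became 4. Over all genes that removal moved the calls from 2306 higher and 2118 lower to 3042 and 2981. With both libraries that stood apart removed, 55 members were higher and 5 lower in cKO, with a median of 0.79, and 58 were higher and 7 lower in cHet. Counts over all genes are not given for that removal, so these member counts lack a background. Across genotypes, 50 members were called higher in both, 3 only in cHet, 1 only in cKO, and 19 were called in neither direction in either genotype. The 1 called only in cKO was Mrpl50, at 0.70, named here after its values were seen. It measured 48.4, 40.5 and 24.1 FPKM in cKO input and 68.1, 48.0 and 62.7 FPKM on cKO polysomes, so the fractions overlapped. Its lowest input value was in replicate 3, which stood apart. The cKO lysates gave differences of 0.49, 0.24 and 1.38. A call in 1 genotype alone does not show a difference between genotypes, which is tested below.

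**Figure D2:**
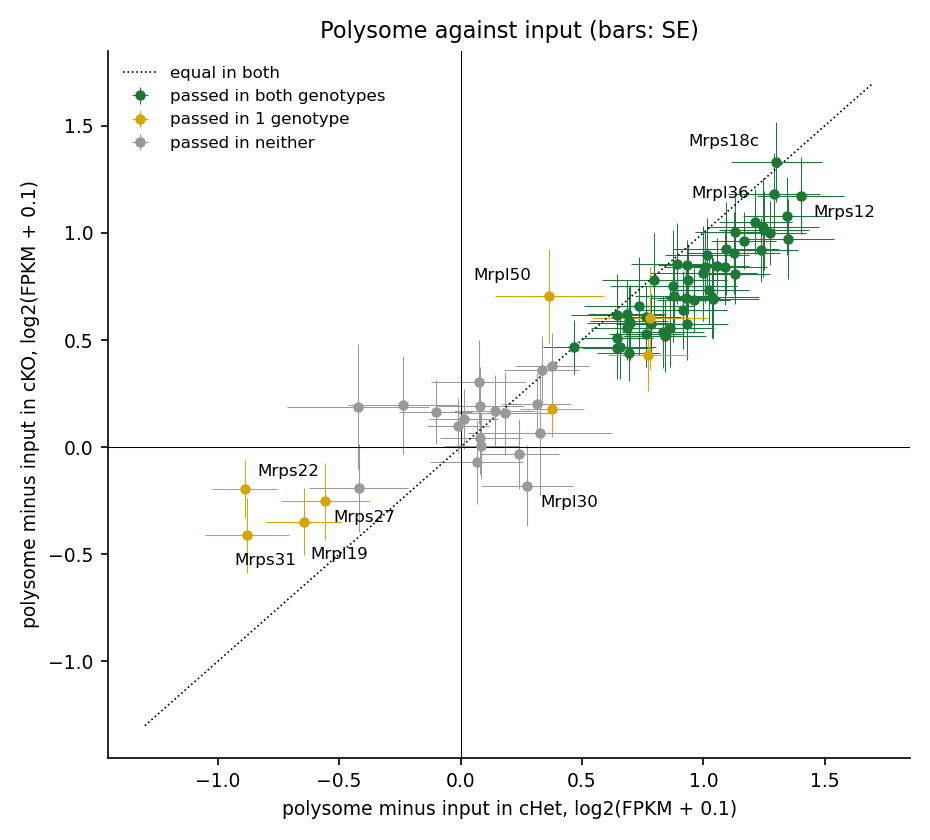
Polysome minus input difference in cHet (horizontal axis) against cKO (vertical axis), both in log2(FPKM + 0.1), for the 77 members, with bars of 1 standard error (n = 3 per group) and colour for whether the test was passed in both, 1 or neither genotype. The standard errors come from 1 fit over all 12 libraries and are the same in both genotypes. They do not show the wider spread of the cKO libraries. The 50 members that passed in both lie at upper right, mostly below the dotted line of equality, and Mrps22, Mrps31, Mrpl19 and Mrps27 lie at lower left.

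Both subunits and both lineages took part. Of the bacterial-type large-subunit genes, 21 of 30 were higher on polysomes in each genotype, with medians of 0.83 in cHet and 0.64 in cKO. Mitochondria-specific large-subunit genes gave 13 of 20 in cHet and 12 in cKO (medians 0.75 and 0.62). Among bacterial-type small-subunit genes, 13 of 16 were higher in cHet and 12 in cKO (0.85 and 0.60). The mitochondria-specific small-subunit genes were the mixed group, with 6 of 11 higher and 3 lower in cHet and 6 higher in cKO (0.64 and 0.52).

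By place in the ribosome, the 3 genes of the stalk that recruits translation factors, Mrpl10, Mrpl11 and Mrpl12, were higher on polysomes in both genotypes. Mrpl12, which forms the stalk itself, measured 40.2, 39.1 and 42.5 FPKM in cHet input and 83.8, 79.1 and 80.5 FPKM on cHet polysomes, a log2 difference of 1.00 (SE 0.22, limma adjusted p = 0.0027). Around the tunnel through which the new chain leaves, only Mrpl17 (0.69) and Mrpl23 (0.88) of 6 genes passed in cHet. The others there were Mrpl22 at 0.33, Mrpl24 at 0.24, Mrpl45 at 0.08 and Mrpl47 at -0.24. Mrpl45 helps to tether the ribosome to the inner membrane.

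Of the 7 genes of the central protuberance, the crest of the large subunit that faces the small one, 5 were higher in cHet and 4 in cKO. Mrpl18 (1.13), Mrpl27 (1.02), Mrpl58 (1.02), Mrpl40 (0.65) and Mrpl48 (0.38) passed in cHet. Mrpl58 encodes a peptidyl-tRNA hydrolase built into the ribosome. Mrpl38 (0.08) and Mrpl46 (0.07) did not pass.

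The largest polysome excess in cHet was that of Mrps12, whose product lies at the decoding site. It measured 39.5, 41.5 and 43.5 FPKM in cHet input and 111, 110 and 108 FPKM on cHet polysomes, a difference of 1.40 (SE 0.18, limma adjusted p = 0.00016). In cKO it measured 54.6, 47.5 and 76.1 FPKM in input and 116, 120 and 163 FPKM on polysomes, a difference of 1.17 (adjusted p = 0.00107). The fractions did not overlap in either genotype.

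Mrps6 (1.35), Mrpl20 (1.34), Mrps18c (1.30) and Mrpl36 (1.29) came next in cHet. All encode bacterial-type proteins, and the product of Mrpl20 binds early in the assembly of the bacterial large subunit. In cKO the largest excess was that of Mrps18c, at 11.8, 13.3 and 8.61 FPKM in input and 21.7, 29.0 and 34.8 FPKM on polysomes, a difference of 1.33 (SE 0.19, adjusted p = 0.000744). Its lowest input value was in replicate 3, and without that library it stood at 1.15, below Mrps12 (1.37), Mrpl36 (1.37) and Mrpl20 (1.28). With all libraries, Mrpl36 (1.18), Mrps12 (1.17), Mrpl20 (1.08) and Mrps14 (1.05) followed.

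The members lower on polysomes in cHet were Mrps22, Mrps31, Mrpl19 and Mrps27, of which all but Mrpl19 encode mitochondria-specific proteins of the small subunit. Mrps22 measured 6.04, 6.26 and 6.69 FPKM in cHet input and 3.56, 3.22 and 3.35 FPKM on cHet polysomes, a difference of -0.89 (SE 0.13, limma adjusted p = 0.000333). Mrps31 measured 4.71, 4.28 and 5.58 FPKM in input and 2.55, 2.91 and 2.31 FPKM on polysomes, a difference of -0.88 (SE 0.17, adjusted p = 0.0014). For both, every input library lay above every polysome library.

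Mrpl19, a bacterial-type large-subunit gene, differed by -0.65 (SE 0.16, adjusted p = 0.00459). Mrps27, whose product has pentatricopeptide repeats that bind RNA, differed by -0.56 (adjusted p = 0.0207), and its call was lost in 5 of 24 alternatives, each of them the removal of 1 cHet library. Those removals were of each of the 3 input libraries and of polysome replicates 1 and 2, and the difference stayed between -0.56 and -0.51.

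In cKO none of these 4 passed, with Mrps31 at -0.41 (adjusted p = 0.0853), Mrpl19 at -0.35 (0.105), Mrps27 at -0.25 and Mrps22 at -0.19 (0.284). There Mrps22 measured 4.25, 5.02 and 5.02 FPKM in input and 4.85, 3.81 and 3.84 FPKM on polysomes, so the fractions overlapped, and cKO polysome replicate 1 held the high polysome value. Without that library, Mrps31 was lower at -0.59 (adjusted p = 0.0089) and Mrpl19 at -0.53 (0.00454), and Mrps22 was at -0.31 (0.0623). Mrps31 was the single member that was lower on polysomes in all 6 lysates, although its difference in cKO lysate 1 was only -0.013.

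Polysome loading of the members followed coding length, as it did for genes at large. The members are short, with a median of 582 coding bases and 5 exons against 1338 bases and 9 exons over expressed protein-coding genes. Of the 27 tested members with under 500 coding bases, 25 (92.6%) were higher on polysomes in cHet, with a median difference of 1.04. Over all 1149 protein-coding genes of that length, 71.2% were higher and the median was 0.89. Of the 39 members with 500 up to 1000 bases, 27 (69.2%) were higher with a median of 0.68, against 51.5% and 0.51 over 2827 genes. Of the 11 members with 1000 bases or more, 1 was higher and 3 were lower (median -0.010), and over 7896 genes of that length the median was -0.36 and 13.0% were higher. The 3 lower were Mrps22, Mrps27 and Mrps31.

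The same order held in cKO, with member medians of 0.84, 0.52 and 0.10 from the shortest class to the longest. Over all protein-coding genes those medians were 0.70, 0.37 and -0.14. The share of members called higher was 92.6%, 64.1% and 9.09%, against 56.9%, 34.3% and 5.95% of all protein-coding genes. Across the 77 members, the Spearman correlation of the polysome difference with coding length was -0.73 in each genotype, and it was -0.66 in cHet and -0.61 in cKO over 11872 protein-coding genes. Genes are not independent samples, all points share the same libraries, and among members the difference also correlated with mean level (0.62 in cHet). Among members the difference correlated with gene model length at -0.43 in each genotype. After removal of the trend with gene model length, 53 members were higher and 5 lower in cHet, and 39 were higher and 1 lower in cKO. The trend with coding length was not removed, so these counts cannot show how many calls would remain without it. Counts over all genes are not given for this setting.

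**Figure D3:**
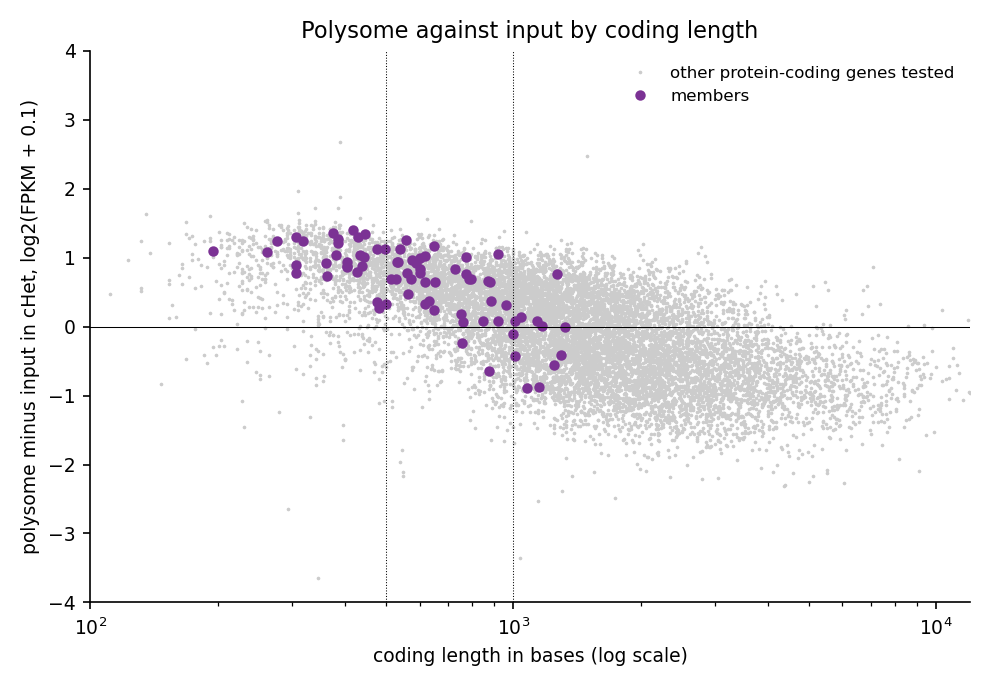
Polysome minus input difference in cHet, in log2(FPKM + 0.1), against coding length in bases (log scale) for members and for the other protein-coding genes tested, with dotted lines at 500 and 1000 bases and genes beyond the axes not drawn. The members fall from around a median of 1.04 below 500 bases to around -0.010 at 1000 bases or more, within the cloud of other genes.

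Nuclear genes for complex I, whose mitochondrial partners the mitochondrial ribosome makes, showed a polysome excess as well. Of 37 tested, 29 were higher and 3 lower in cHet (median 1.12), and 27 were higher in cKO (median 0.83). Genes for cytosolic ribosomal proteins went the other way, with 6 of 82 higher and 29 lower in cHet (median -0.30) and 1 higher and 57 lower in cKO (median -0.68). Each of these lists was tested in the same fit as the members.

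The rest of the mitochondrial translation machinery was more divided than the ribosomal proteins. Of 5 further subunits with other names, 2 were higher and 1 lower in cHet. The higher ones were Chchd1 (1.44) and Aurkaip1 (1.12), at 1.23 and 0.86 in cKO. Of 10 translation factors, 2 were higher and 3 lower in each genotype. Gfm1, the elongation factor that moves the ribosome along, was lower at -1.26 in cHet and -0.72 in cKO, and Tufm, which brings in aminoacyl-tRNA, at -1.04 in cHet. Of 17 aminoacyl-tRNA synthetases, 1 was higher and 6 lower in cHet, among them Aars2 (-1.31) and Iars2 (-1.16), and 4 were lower in cKO. Of 24 assembly factors, 8 were higher and 3 lower in cHet, and 5 were higher and 1 lower in cKO. Malsu1, which keeps the subunits from joining early, stood at 1.04 and 0.82, and the helicase gene Dhx30 at -0.84 in cHet.

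The RNAs of the mitochondrial ribosome itself were scarce on polysomes. The small-subunit rRNA mt-Rnr1 measured 544, 624 and 574 FPKM in cHet input and 8.24, 13.5 and 13.7 FPKM on cHet polysomes. In cKO it measured 1009, 664 and 623 FPKM in input and 6.78, 13.9 and 11.2 FPKM on polysomes. The large-subunit rRNA mt-Rnr2 fell between 305 and 643 FPKM across the 6 input libraries and between 3.31 and 7.23 FPKM across the 6 polysome libraries. For both, no input library came near a polysome library.

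Many members share a start region with a neighbour that runs the other way. A head-to-head protein-coding partner with its start within 1000 bases was found for 33 members (42.3%), against 16.4% of 11474 expressed protein-coding genes. Mrpl46 and Mrps11 are members that face each other, and their pair was entered once from each side. Both genes thus count as members and as partners in the values that follow. In the 28 pairs tested, counted this way, the median polysome difference in cHet was 0.81 for members and -0.14 for partners. Of those members 20 were higher, and of the partners 8 were higher and 8 lower. In cKO the medians were 0.65 and 0.11.

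Within pairs the RNAs from both sides differed in loading in some cases and not in others; the following pairs were chosen after their values were seen. Mrpl36 stood at 1.29 and its partner Ndufs6, a complex I subunit gene, at 1.20. Mrpl51 stood at 1.28 and Ncapd2, a condensin gene, at -1.45. Mrpl18 stood at 1.13 and Tcp1, a chaperonin gene, at -1.02. Sars2, the mitochondrial seryl-tRNA synthetase gene that faces Mrps12, stood at -0.63.

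The polysome difference was not shown to depend on genotype for any member. In the test of the interaction (cKO difference minus cHet difference), 0 of 77 members and 0% of all 13610 genes passed, by limma and by voom for the members. At an unadjusted p under 0.05, 638 genes and 1 member passed, Mrps22, at 0.69 (SE 0.19, limma adjusted p = 0.790). Mrps31 (0.47) and Mrpl1 (0.61) had the next smallest p among those above 0, and Mrpl30 (-0.46), Mrpl49 (-0.32) and Mrps33 (-0.32) among those below 0. Mrpl1 measured 4.62, 5.17 and 1.80 FPKM in cKO input, and without replicate 3, the low library, its interaction was 0.15. Without either library that stood apart, Mrps22 stood at 0.62, Mrps31 at 0.33, Mrpl1 at 0.086, Mrpl30 at -0.14, Mrpl49 at -0.12 and Mrps33 at -0.13. The median interaction of the members was -0.16, with 59 of 77 below 0, and 0.02 over all genes. It was -0.042 without cKO input replicate 3, and -0.0076 without either library that stood apart. With all libraries, the interaction medians of protein-coding genes at large also ran with coding length. They were -0.20 under 500 bases, -0.13 from 500 up to 1000 and 0.17 at 1000 or more. For members they were -0.22, -0.15 and 0.12 in that order.

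In input RNA, no member passed the test between genotypes. The summed member level was 1874 ± 19.3 FPKM in cHet and 2226 ± 363 FPKM in cKO (SD, n = 3), and the highest cKO library was replicate 3. With limma, 0 of 77 members and 0% of the 12977 genes tested passed in either direction. At an unadjusted p under 0.05, 17 members and 1943 of the 12977 genes passed, and voom called 0 members. The median difference (cKO minus cHet) was 0.10 for members and -0.01 for all genes, with 55 members above 0. Without cKO input replicate 3 it was -0.0083, with 35 members above 0.

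The genotype groups did not overlap for 27 members in input, against 29.3% of all genes tested. In 21 of them every cKO library was higher, against 16.9%, and in the other 6 every cKO library was lower, as for 1619 of the 12977 genes tested. Without cKO input replicate 3, every cKO library was higher for 23 members and lower for 19. Over the 12827 genes then tested, the counts were 3138 and 3299. The summed macrophage, epidermis and limb mesenchyme markers given above were also higher in every cKO input library, and their part was not tested. The smallest p among the higher was that of Mrps2, a bacterial-type small-subunit gene. It measured 22.8, 21.9 and 22.7 FPKM in cHet and 49.5, 36.1 and 49.3 FPKM in cKO, a difference of 0.98 (SE 0.15, limma adjusted p = 0.141). Mrpl43 measured 53.2, 53.0 and 55.2 FPKM in cHet and 122, 90.5 and 151 FPKM in cKO, a difference of 1.14 (SE 0.19, adjusted p = 0.141). Mrpl16, whose bacterial counterpart lies near the peptidyl transferase centre, measured 21.7, 20.4 and 21.2 FPKM in cHet and 34.8, 30.0 and 38.6 FPKM in cKO, a difference of 0.70 (SE 0.13, adjusted p = 0.141). In each of the 3, the lowest cKO library was replicate 2, and it still lay above all cHet libraries.

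Whether these 3 passed depended on the libraries in the fit. Without cKO input replicate 3, the library that stood apart, 3 members were called higher, against 1.94% of all genes, and 0 lower, against 0.6%. The 3 were Mrpl43 at 0.97, Mrps2 at 0.91 and Mrpl16 at 0.61, each with a limma adjusted p of 0.042. Without cKO input replicate 2, Mrpl43 and Mrps2 were called, both with an adjusted p of 0.0392, among 39 genes higher and 8 lower over all genes. With all 12 libraries in the fit, Mrpl43 (0.0302) and Mrps2 (0.0281) were called too, among 76 genes higher and 6 lower. Over 17 alternatives, the differences ranged from 0.97 to 1.34 for Mrpl43 and from 0.90 to 1.13 for Mrps2. In 14 of these alternatives Mrpl43 and Mrps2 stayed uncalled, and Mrpl16 did so in 16.

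The smallest p among lower members in input was that of Mrps22, at 6.04, 6.26 and 6.69 FPKM in cHet and 4.25, 5.02 and 5.02 FPKM in cKO, a difference of -0.41 (SE 0.13, limma adjusted p = 0.232). Every cKO library lay below every cHet library. Mrps18c (-0.45, adjusted p = 0.293) and Mrps15 (-0.30, adjusted p = 0.321) followed, and neither passed. Without cKO input replicate 3, Mrps18c stood at -0.27 and Mrps15 at -0.36.

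On polysomes no member passed between genotypes either. The summed member level was 3467 ± 26.2 FPKM in cHet and 3673 ± 566 FPKM in the libraries labelled cKO (SD, n = 3), so the groups overlapped. With limma, 0 of 77 members and 0% of 12877 genes passed in either direction. At an unadjusted p under 0.05, 14 members and 2743 of the 12877 genes passed, and voom called 0 members. The median difference was 0.0026 for members and 0.02 for all genes. The groups did not overlap for 22 members, against 31.4% of all genes. In 13 of them cKO was higher, against 17.9%, and in the other 9 cKO was lower, as for 1737 of the 12877 genes tested. Without cKO polysome replicate 1, every cKO library was higher for 19 members and lower for 9. Over the 12738 genes then tested, the counts were 2793 and 2116. The summed macrophage, epidermis and neural crest markers given above were also higher in every cKO polysome library, and their part was not tested.

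The smallest p on polysomes was again that of Mrps2, with 35.4, 31.4 and 40.3 FPKM in cHet and 65.5, 57.3 and 62.4 FPKM in cKO, a difference of 0.79 (SE 0.15, limma adjusted p = 0.0848). Mrpl43 measured 122, 110 and 121 FPKM in cHet and 213, 186 and 279 FPKM in cKO, a difference of 0.92 (SE 0.19, adjusted p = 0.0866). Mrpl46, a mitochondria-specific gene of the central protuberance, measured 22.8, 19.4 and 25.6 FPKM in cHet and 53.9, 31.9 and 40.8 FPKM in cKO, a difference of 0.87 (SE 0.21, adjusted p = 0.109). For all 3, the cKO libraries lay above the cHet libraries.

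Without cKO polysome replicate 1, which stood apart, Mrps2 was called higher, at 0.75 with an adjusted p of 0.0498. Over all genes 0.785% were then called higher and 0.471% lower, and the median of the members was 0.03. Without cKO polysome replicate 2, Mrpl43 was called at 1.05 (adjusted p = 0.0495), among 121 genes higher and 110 lower over all genes. With all 12 libraries in the fit, Mrpl43 (0.0411) and Mrps2 (0.0396) were called, among 146 genes higher and 38 lower. Each of them stayed uncalled on polysomes in 15 of 17 alternatives. Among lower members, Mrps15 (-0.45, adjusted p = 0.180), Mrpl49 (-0.42, 0.204) and Mrpl23 (-0.39, 0.222) had the smallest p.

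**Figure D4:**
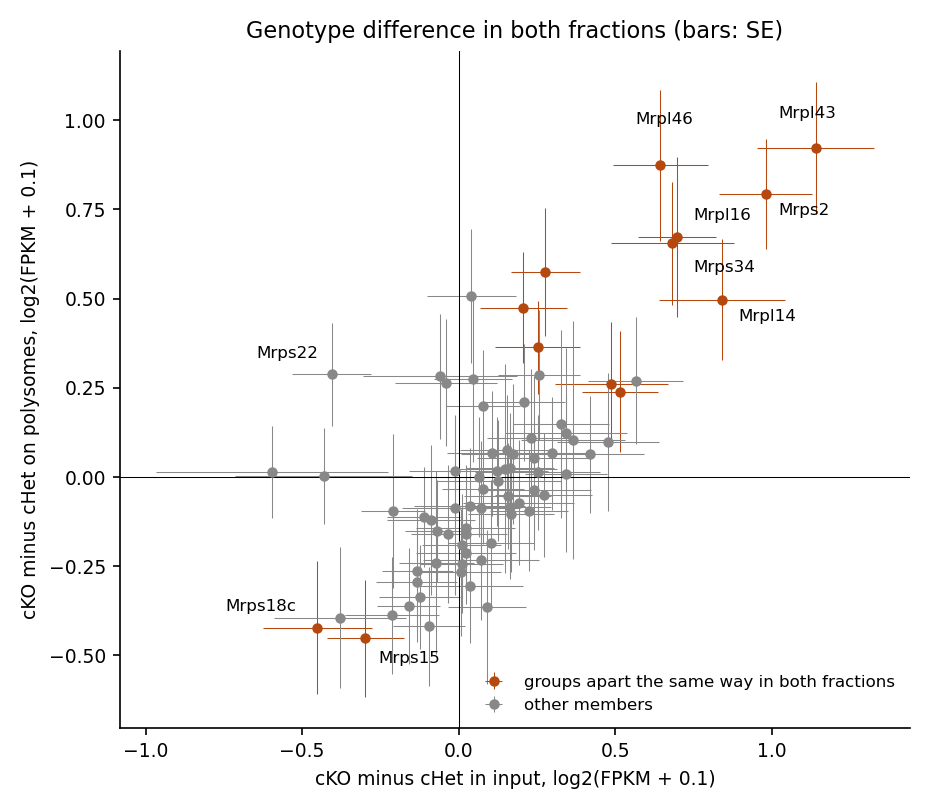
Genotype difference (cKO minus cHet, log2(FPKM + 0.1)) in input on the horizontal axis and on polysomes on the vertical axis for the 77 members, with bars of 1 standard error. The 13 members whose genotype groups did not overlap, in the same direction in both fractions, are coloured, with Mrpl43 and Mrps2 farthest to the upper right and Mrps15 and Mrps18c at lower left.

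In both fractions together, 11 members had every cKO library above every cHet library, and 2 had every one below. Of the 12411 genes tested in both fractions, 8.3% had every cKO library above and 4.42% every one below in both. Input and polysome libraries come from the same lysates, so the fractions are not independent. The 11 were Mrpl43, Mrpl14, Mrps12, Mrps2, Mrpl51, Mrpl46, Mrpl16, Mrps34, Mrpl44, Mrpl19 and Mrps30, and the 2 were Mrps15 and Mrps18c. Mrps15 measured 36.4, 35.6 and 36.1 FPKM in cHet input and 25.4, 30.8 and 32.2 FPKM in cKO input. Mrps34 stood at 0.68 in input and 0.65 on polysomes, and Mrpl14 at 0.84 and 0.50. The model of Mrps34 (mm10, chr17:24895116-24897502, plus strand) lies inside that of Mapk8ip3 on the other strand and shares 1003 bases with Nme3, and Mrpl14 overlaps Tmem63b by 584 bases, so the values of both are uncertain.

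**Figure D5:**
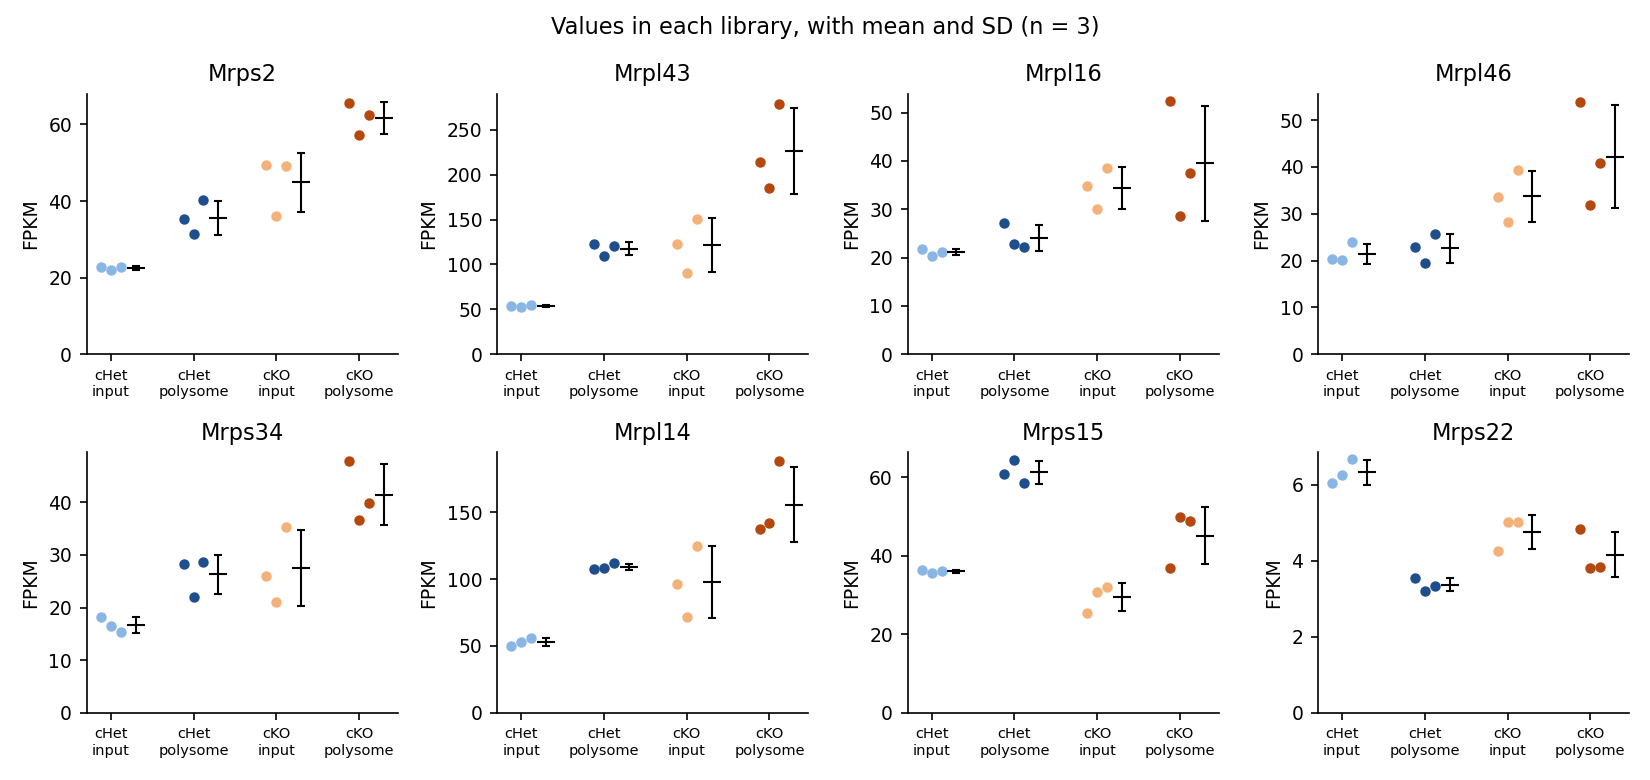
FPKM in each of the 12 libraries for 8 members (linear axes that start at 0), with the mean and SD of each group (n = 3) beside the points. Mrps2, Mrpl43, Mrpl16, Mrpl46, Mrps34 and Mrpl14 have every cKO point above every cHet point of the same fraction, Mrps15 has every one below, and Mrps22 has its cHet input points at 6.04 to 6.69 above all others.

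The neighbours of these genes did not always follow them. Mrpl43 and its head-to-head partner Twnk, the gene of the mitochondrial DNA helicase, stood at 1.14 and 0.60 in input and at 0.92 and 0.88 on polysomes (limma adjusted p for Twnk = 0.240 and 0.0870). Mrpl46 and Mrps11 are members that face each other, with RefSeq starts separated by 41 bases and deposited gene models that overlap by 413 bases. Mrpl46 stood at 0.64 in input and 0.87 on polysomes, and Mrps11 at 0.04 and -0.08. In polysome loading in cHet, Mrps11 was higher (0.70) and Mrpl46 stood at 0.07. The stretch between their RefSeq starts is printed on the strand of Mrps11, with an SP1 match in capitals.
Mrpl46 to Mrps11 (GRCm38.p6, chr7:78783090-78783130, plus strand): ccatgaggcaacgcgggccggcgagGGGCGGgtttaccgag

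Outside the ribosomal proteins, the smallest p among assembly factors was that of the RNA helicase gene Ddx28, which did not pass, at 0.82 in input (adjusted p = 0.141) and 0.99 on polysomes (0.0848). Mrm3, a methyltransferase gene of the large rRNA, stood at 0.64 and 0.70. Chchd1 stood at 0.41 in input (adjusted p = 0.264). In input the medians were 0.17 for cytosolic ribosomal protein genes and -0.09 for complex I genes, beside 0.10 for the members. Without cKO input replicate 3 these were 0.06, -0.21 and -0.0083. On polysomes they were -0.27 and -0.21, beside 0.0026, and without cKO polysome replicate 1 they were -0.15 and -0.12, beside 0.03.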

How the data were processed

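RNA-seq of 12 libraries (4 groups of 3) was analysed from 1 table of gene values. The authors deposited FPKM per gene. Reads were aligned with HISAT2 2.0.5 to mm10 and counted with featureCounts 1.5.0-p3, per the submitters' processing notes. Tested on the file, 100% of values above 0 were whole reads (within 0.01 read) divided by gene length and by a median-ratio size factor over the 12 libraries, so polysome differences are relative to the median gene.

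Members and gene lists were chosen with earlier results of these data known. Genes with at least 1 FPKM in at least 3 fitted libraries were tested on log2(FPKM + 0.1) with limma 3.58.1 (R 4.3.3, trended variance), Benjamini-Hochberg over all genes, threshold 0.05. Genotype was tested within each fraction (6 libraries), and polysome against input and the interaction in 1 fit of 4 group means over 12 libraries. The fit was tested on simulated data. Named members are, per comparison, the 5 with the largest change past the threshold in each direction without overlap, or the 3 with the smallest p where fewer than 3 passed. The 5 highest and 5 lowest by level, the structural site genes and 2 per pathway list were added. Whole reads recovered from the FPKM entered voom as an alternative. Further alternatives were other pseudocounts, filters, scalings, fits, blocks and each library left out. Removal of both libraries that stood apart and total-read scaling were added after seeing the data.

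By the design, input and polysome RNA came from the same lysates. Libraries with 1 genotype and number were taken to share a lysate, which the labels do not state. Within a lysate, deviations from group means had r = 0.15, 0.13 and 0.25 (cHet) and 0.053, 0.23 and 0.10 (cKO). Across genotypes the labels do not say that libraries of the same number share anything, and r ran from -0.28 to 0.17. Whether libraries of a number share a batch cannot be told from these values.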

Additional observations from a re-analysis of the deposited data

How the results depend on the processing

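With all 12 libraries in the fit, 2 members were called higher between genotypes in input and 2 on polysomes. Leaving out 1 library at a time gave 0 to 3 members higher in input and 0 to 1 on polysomes. The median of members in input ran from -0.0083 (without cKO input replicate 3, a change of sign) to 0.16. For polysome against input in cHet, protein-coding scaling gave a median of 0.55, and 7 members were lower both in a fit of the 6 cHet libraries and with both libraries that stood apart removed. The fit of the 6 cHet libraries gave 60 members higher. In cKO, protein-coding scaling gave 1 lower and a median of 0.46, the length trend removed gave 1 lower, and a fit of the 6 cKO libraries gave 14 higher. Leaving out 1 library gave 29 to 54 higher, 0 to 4 lower and medians of 0.49 to 0.75 there, and removal of both gave 5 lower and a median of 0.79. With 1 library left out, the cKO calls over all genes ran from 1189 to 3042 higher and from 1252 to 2981 lower. The interaction median ran from -0.26 to -0.042 with 1 library left out and was -0.0076 without both. The cause of these moves was not tested. With the lysate as a block, the pairing gave 53 members higher and 4 lower in cHet and 53 and 0 in cKO. With the replicate number as a block, 0 members were called between genotypes in either fraction, and over all genes on polysomes 31 were higher and 11 lower, against 0 and 0 without it. No other call on the members changed side under the block. Scaling by total reads gave 53 higher and 4 lower in cHet. Precision is limited by 3 libraries a group.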
